A study of Mus musculus with 7 samples.

Results

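The type I interferon-stimulated antiviral genes are a set of 46 genes that cells switch on after interferon alpha or beta binds its receptor: effectors that attack viral RNA and viral particles, sensors of foreign nucleic acid, and the machinery of the ubiquitin-like protein ISG15. They were chosen by name, with earlier results of these data known. A gene was taken where a row of the array table carried its symbol and no other, with the brightest row kept per gene, which gave 43 of the 46 members among 19938 measured genes. Isg15, Oas1g and Ifi44 had no such row and were not analysed here.

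Type I interferons signal through the receptor chains Ifnar1 and Ifnar2 and the kinases Jak1 and Tyk2, which activate transcription factors that include Stat2. Together with Irf9, Stat2 belongs to a complex that binds the interferon-stimulated response element, or ISRE, in the promoters of its targets. Interferon gamma acts through another receptor, and many genes respond to both. In the gut wall, macrophages meet microbial products from the lumen, and IL-10 is a cytokine known for restraining their inflammatory output.

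The study measured 7 Affymetrix arrays of FACS-purified colonic macrophages, taken from the lamina propria of C57BL/6 mice at 6 weeks of age, and it asked how these cells change without IL-10 or without its receptor. WT mice carried Cx3cr1gfp/+, a reporter that replaces 1 copy of the fractalkine receptor gene with GFP. Il10_KO mice were IL10-/- with the same CX3CR1gfp/+ reporter. Il10ra_mKO mice were CX3CR1cre:IL10Raflox/flox, in which Cre made from the Cx3cr1 locus removes Il10ra, the ligand-binding chain of the IL-10 receptor, from cells that express Cx3cr1. No array carried this Cre without the floxed gene, so the Cre allele and the loss of Il10ra cannot be told apart. The label resident was given to 3 WT arrays and 2 Il10ra_mKO arrays, and the label CX3CR1hi to 1 WT array and 1 Il10_KO array. Mutants are compared with WT within a label only, because label and RNA extraction kit move together as far as the protocol's numbering follows the sample order. The labels do not say that arrays of a group are separate animals, and the spread behind each p-value, which is that between these arrays, may be technical.

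Il10ra stood at log2 10.56, 10.76 and 11.12 in resident WT, against 8.05 and 7.04 in Il10ra_mKO. Under the CX3CR1hi label, Il10 stood at 11.04 in WT, against 10.75 where the label says Il10_KO; whether its probes lie in the deleted part is not known here, so these values check nothing and the genotype rests on the label. Macrophage markers were bright in every array, with a mean level of the 11 measured genes between log2 11.60 and 11.90 in the resident arrays. In Il10ra_mKO 7 of them were higher and 4 lower. Cx3cr1 was at 10.70 to 10.85 in resident WT, against 10.11 and 10.44 in the mutant. Mertk and Fcgr1 differed by 0.95 and 0.61, with both mutant arrays above WT. RNA of colon epithelium was also present: the mean of its 12 markers was 10.28 to 10.66 in resident WT, 10.42 in Il10ra_mKO array 1 and 8.61 in Il10ra_mKO array 2. It was 11.10 in the CX3CR1hi WT array and 10.52 in the Il10_KO array. In bulk RNA of sorted cells, fewer cells of a type and less RNA per cell cannot be told apart.

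Promoter stretches of 6 members are printed here because the ISRE is the feature that names the set, and because they include both a large change in Il10ra_mKO, in Rsad2 (2.63-fold higher), and one near 0, in Ddx60 (0.04 on the log2 scale). Each is RefSeq sequence of GRCm38.p6, on the strand of the gene, upstream of its start, and capitals mark ISRE cores, read as GAAANNGAAA or GAAANNNGAAA on either strand, which can overlap. Rsad2, an enzyme that makes a chain-terminating nucleotide, lies on the minus strand at chr12:26456536-26456587, and Stat2 on the plus strand at chr10:128270261-128270300. Ifit3, an RNA-binding antiviral protein, lies on the plus strand at chr19:34583358-34583438, and Oas3, a sensor of double-stranded RNA, on the minus strand at chr5:120777710-120777749. Bst2, which tethers budding virus to the cell surface, lies on the minus strand at chr8:71537572-71537617, and Ddx60, a helicase of RNA sensing, on the plus strand at chr8:61928019-61928086.
Rsad2: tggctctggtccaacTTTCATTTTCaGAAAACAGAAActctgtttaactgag
Stat2: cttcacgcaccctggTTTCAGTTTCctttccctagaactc
Ifit3: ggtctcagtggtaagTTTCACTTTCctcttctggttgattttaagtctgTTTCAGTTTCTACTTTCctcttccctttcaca
Oas3: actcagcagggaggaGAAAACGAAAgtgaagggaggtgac
Bst2: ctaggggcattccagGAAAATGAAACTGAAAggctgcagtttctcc
Ddx60: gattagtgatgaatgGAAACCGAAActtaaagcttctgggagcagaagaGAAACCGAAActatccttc

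In the RefSeq promoter table, which covers 250 bases before to 50 after each start, 35 of the 46 members had at least 1 window. An ISRE core lay in 23 of their 42 windows (54.8%), against 5.99% of all 32851 windows of the same length. The core of the gamma-activated site, TTCNNNGAA, an element of interferon gamma responses, lay in 7 member windows (16.7%) against 8.3% of all windows. Among measured members, the 18 with an ISRE core in a window had a median change of 0.47 in Il10ra_mKO, and the 14 without one had a median of 0.55. The medians of members with and without a core were close, and Ddx60, with 2 cores, was among the members that differed least. No match says only that these letters are not in this window. Usp18, Dhx58, Zbp1, Oas2, Mx1, Mx2, Rtp4, Parp9, Parp14, Ifi27l2a and Tor3a were not in the table.

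The 2 Il10ra_mKO arrays read higher on average than the resident WT arrays in most antiviral genes, by a modest amount. Of the 43 members 40 were higher and 3 lower, where 48.8% of all genes were higher and 50.1% lower. The median change was 0.51 on the log2 scale and that of all genes -0.00. In 23 members both Il10ra_mKO arrays lay above all 3 resident WT arrays, where 8.92% of all genes did, and in 0 members did both lie below, where 8.5% of all genes did. By limma over all genes, 0 members passed at an adjusted p under 0.05, with adjusted p from 0.244 to 0.966, and of all genes 0% rose and 0.00502% fell at this threshold. At an unadjusted p under 0.05, 15 members were higher and 0 lower, against 4.06% of all genes higher and 3.86% lower. All genes include many dim ones, and 60.4% of them had equal values in at least 2 arrays, against 14% of members. With a brightness filter (above log2 5.86 in at least 2 arrays), 39 of 42 members were higher, against 55.8% of 10558 genes. Then 23 members lay above WT without overlap, against 14.6%, and 17 were higher at that unadjusted p, against 7.03%. The count of 15 was 2 (4.65% of members) without Il10ra_mKO array 2, below the 7.24% of all genes in that fit. It was 8 without WT array 1 and 7 without WT array 2, against 3.24% and 2.37% of all genes. The median was 0.37, 0.42 and 0.43 in turn. The count of 23 was again 23 without Il10ra_mKO array 2, the array with less epithelial RNA, where 21.4% of all genes did not overlap in this direction. Leaving out Il10ra_mKO array 1 gave 37 and leaving out WT array 3 gave 37, against 25.6% and 15% of all genes.

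**Figure D1:**
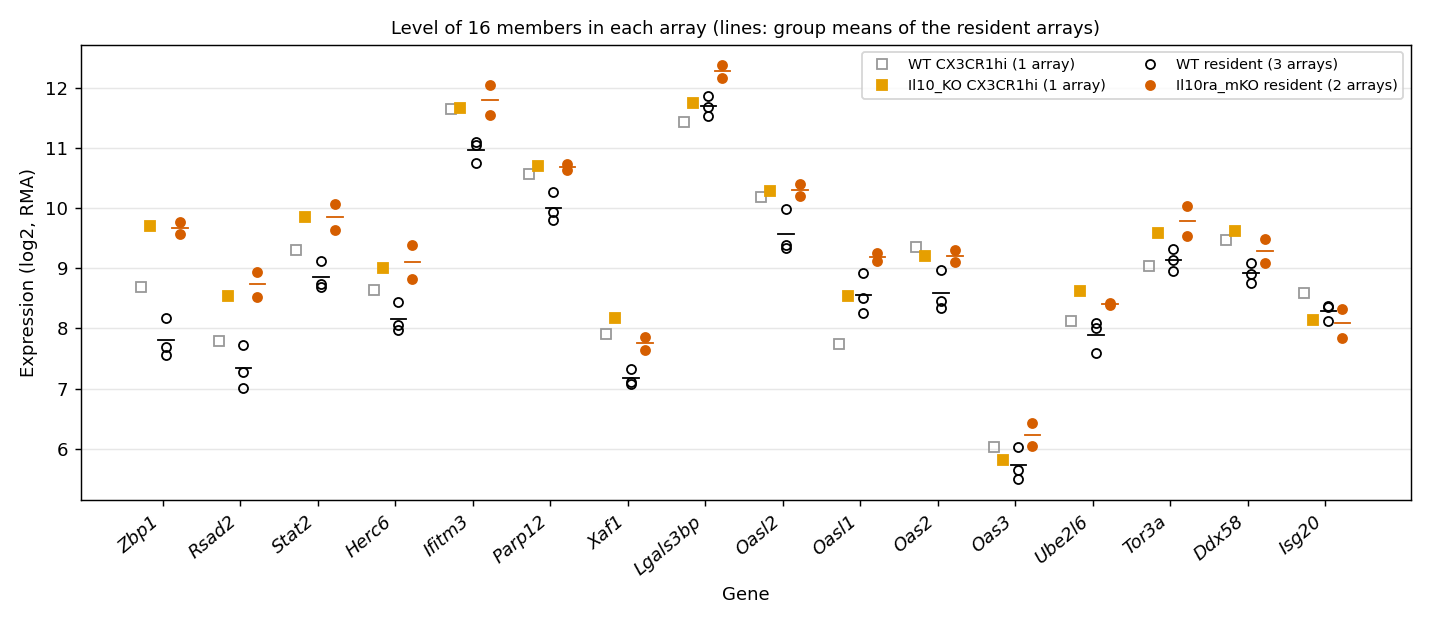
Expression of 16 members in each array (y axis, log2 RMA value; x axis, gene). Open circles are the 3 resident WT arrays and filled circles the 2 Il10ra_mKO arrays, with lines at their means, and squares are the single CX3CR1hi arrays of WT (open) and Il10_KO (filled). In Zbp1 the Il10ra_mKO arrays at 9.78 and 9.57 lie well above resident WT, while in Isg20 the groups overlap.

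Among the nucleic acid sensors, Zbp1 stood apart. It encodes a receptor for left-handed double-stranded nucleic acid that can start inflammatory cell death. Its level was 7.55, 7.68 and 8.17 in resident WT and 9.78 and 9.57 in Il10ra_mKO. All mutant values exceeded all WT values by more than the WT arrays differed among themselves. The difference was 3.66-fold (log2 1.87 ± 0.23, SE, 95% interval 1.23 to 2.52, n = 2 against 3; limma adjusted p = 0.244). With quantile normalization of the arrays or with each array centred on its median, Zbp1 was the member that passed (limma adjusted p = 0.0354 and 0.0239). Over all alternatives its adjusted p ran from 0.0239 to 0.741, the highest without WT array 2.

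The RNA helicases that sense viral RNA differed less. Ddx58, which encodes RIG-I, was at 8.76, 8.90 and 9.09 in WT, against 9.09 and 9.48 in Il10ra_mKO, so that the groups met at one value (log2 change 0.37 ± 0.17, limma adjusted p = 0.678). Ifih1, which encodes MDA5, differed by 0.35, and Dhx58, which encodes LGP2, by 0.52. Both lay beside Trim25 (0.14), a ubiquitin ligase that acts on RIG-I, Eif2ak2 (0.24), the kinase PKR that halts translation, and Ddx60 (0.04). All 7 sensors were higher, but only in Zbp1 and Dhx58 did the groups not overlap.

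Of the ISG15 genes, 3 of 4 were measured. Herc6, the ligase that attaches ISG15 to proteins in mice, was at 8.05, 7.98 and 8.43 in WT, against 8.82 and 9.38 in Il10ra_mKO, 1.93-fold higher (log2 0.95 ± 0.25, limma adjusted p = 0.486). Ube2l6, the enzyme that passes ISG15 to the ligase, was at 7.59, 8.01 and 8.09 in WT, against 8.43 and 8.38 in the mutant (0.51 ± 0.18, limma adjusted p = 0.627). The mutant arrays lay above WT in both genes. Usp18, which removes ISG15 and dampens the interferon receptor, overlapped between the groups: WT array 3 at 8.47 exceeded Il10ra_mKO array 1 at 7.92.

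Among the 9 measured RNA-binding and RNA-degrading effectors, 8 were higher, with a median of 0.61, and 5 did not overlap. Ifit2, which binds RNA and inhibits translation, differed most in this group (1.08 ± 0.44), with WT at 7.49 to 8.59 and Il10ra_mKO at 8.72 and 9.45. Ifit3 and Ifit1 differed by 0.81 and 0.48 with overlapping groups. The oligoadenylate synthetases make the messenger that activates RNase L. Oas2 was at 8.98, 8.34 and 8.46 in WT, against 9.11 and 9.30 in the mutant (0.61 ± 0.24). Oas3 was dim, at 5.65, 5.49 and 6.04 in WT, against 6.05 and 6.42 in the mutant (0.51 ± 0.22), so the mutant's lower value is only just outside WT.

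The OAS-like genes Oasl1 and Oasl2 were also measured. Oasl2 was at 9.34, 9.39 and 9.98 in WT, against 10.20 and 10.39 in Il10ra_mKO (0.73 ± 0.25, limma adjusted p = 0.600). Oasl1, which represses translation of Irf7, was at 8.92, 8.25 and 8.50 in WT, against 9.25 and 9.12 in the mutant (0.62 ± 0.23, limma adjusted p = 0.645). Both mutant arrays lay above WT in both genes. Isg20, an RNA exonuclease, had the most negative change of all members, at 8.12, 8.37 and 8.36 in WT, against 8.33 and 7.84 in the mutant (-0.20 ± 0.19), and its groups overlapped. Oas1a differed by 0.12. Probe sets of close paralogues such as the Oas and Ifit genes can share signal, so values within these families are uncertain.

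Of the 9 genes that block viral entry, replication or release, 8 were higher and 3 did not overlap. Rsad2 was at 7.27, 7.01 and 7.73 in WT, against 8.53 and 8.94 in Il10ra_mKO. It was 2.63-fold higher (log2 1.40 ± 0.28, 95% interval 0.61 to 2.18; limma adjusted p = 0.397), the second-largest change of the members. Ifitm3, which hinders the fusion of virus with endosomes, was one of the brightest members, at 11.05, 11.11 and 10.76 in WT, against 12.05 and 11.55 in the mutant (1.78-fold, log2 0.83 ± 0.21). For both genes the mutant arrays lay above every WT array. Rtp4, which restrains flavivirus replication, differed by 0.58 without overlap.

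The remaining genes of this role overlapped between the groups. Mx1 and Mx2, GTPases whose copies in C57BL/6 mice are known to make no full-length protein, differed by 0.69 and 0.25, and Bst2 by 0.46. Slfn5, a Schlafen protein, differed by 0.29. Cmpk2, a mitochondrial nucleotide kinase, differed by 0.03 at levels of 5.62 to 6.00 in the resident arrays, and Samd9l, a translation inhibitor, by -0.10. Cmpk2 is the chromosomal neighbour of Rsad2, and the changes of the pair thus lay at 0.03 and 1.40.

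Among the regulators of signalling, all 7 were higher, 6 without overlap, with a median of 0.68. Stat2, a subunit of the ISRE-binding complex, was at 8.69, 8.75 and 9.12 in WT, against 9.64 and 10.07 in Il10ra_mKO, 2.00-fold higher (log2 1.00 ± 0.21, limma adjusted p = 0.416). Parp12, an ADP-ribosyltransferase that restricts RNA viruses, was at 9.94, 9.80 and 10.27 in WT, against 10.63 and 10.74 in the mutant (0.68 ± 0.17, limma adjusted p = 0.467). In both genes the WT arrays differed among themselves by less than the step to the mutant mean. Parp14, Dtx3l and Parp9 are neighbours on mouse chromosome 16, and the products of Dtx3l and Parp9 work as one complex. They differed by 0.54, 0.83 and 0.70, each without overlap. Trim21, a cytosolic antibody receptor, differed by 0.48 without overlap, and Trim30a, which restrains NF-kB signalling, by 0.31 with overlap.

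In the last group, of nuclear body, cell death and other genes, 7 of 8 were higher and 5 did not overlap. Xaf1, a promoter of apoptosis, was at 7.11, 7.07 and 7.33 in WT, against 7.65 and 7.86 in Il10ra_mKO (log2 change 0.58 ± 0.12, limma adjusted p = 0.405). Lgals3bp, a secreted glycoprotein that binds galectins, was at 11.53, 11.69 and 11.87 in WT, against 12.17 and 12.37 in the mutant (0.58 ± 0.14, limma adjusted p = 0.451). Tor3a, an ATPase of the endoplasmic reticulum, was at 8.96, 9.14 and 9.32 in WT, against 9.53 and 10.04 in the mutant (0.65 ± 0.21). In these genes every mutant array lay above WT. Epsti1 and Ifi35 differed by 0.48 and 0.33 without overlap. Sp100 and Daxx, proteins of nuclear bodies that silence viral DNA, differed by 0.50 and 0.34 with overlap, and Ifi27l2a by -0.05.

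**Figure D2:**
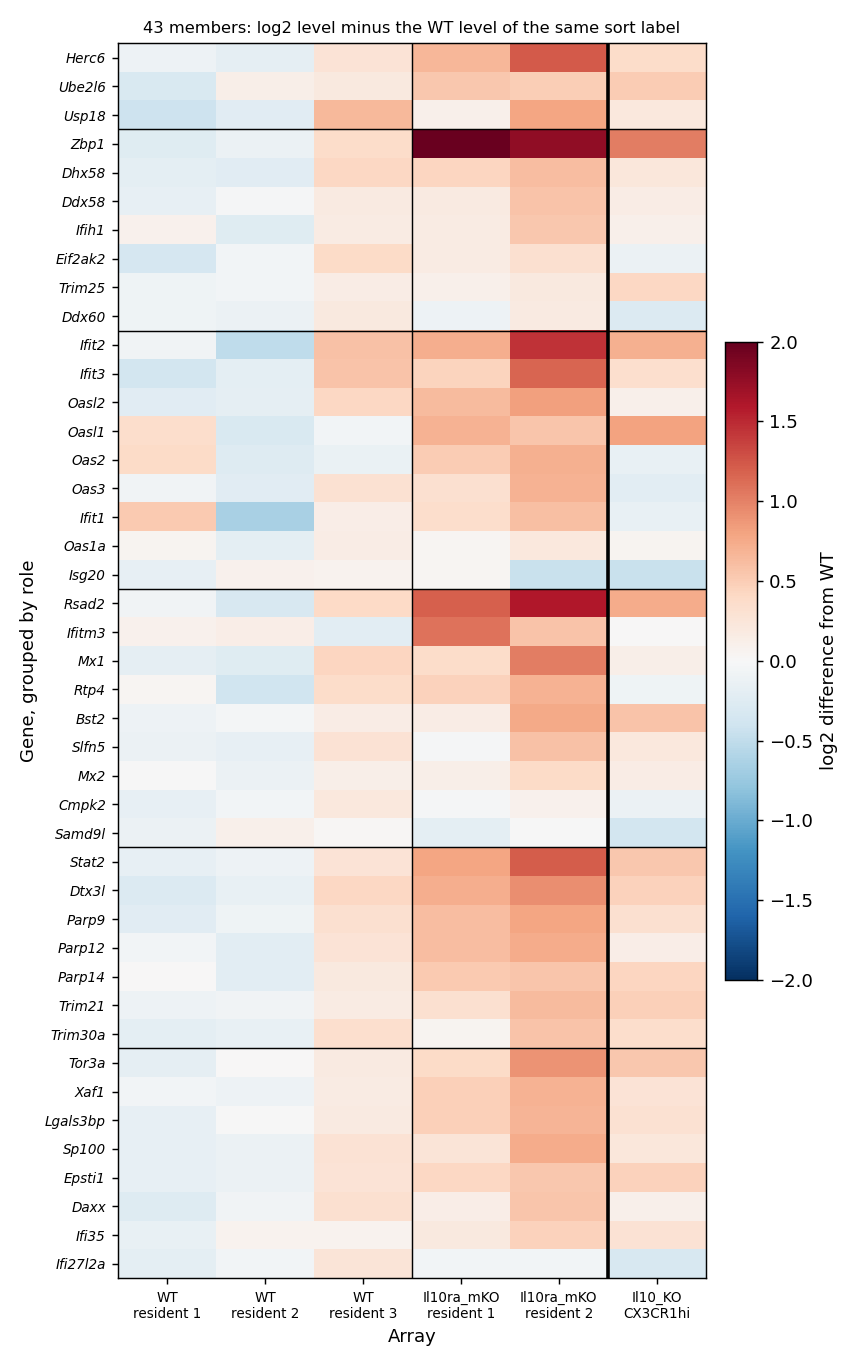
Log2 level of each member minus the WT level of the same sort label: the mean of 3 arrays for the resident label, the single WT array for CX3CR1hi (right column). Rows are genes grouped by role and ordered by change, columns are arrays, and colour runs from -2 to 2. Il10ra_mKO array 2 and WT resident array 3 are redder than their group partners in most rows.

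The members also varied together among arrays of 1 genotype. WT resident array 3 lay above both other resident WT arrays in 36 of the 43 members (83.7%), against 26.2% of all genes, with a median excess of 0.38. Il10ra_mKO array 2 lay above array 1 in 37 members (86%), against 40% of all genes, with a median excess of 0.23. Both higher arrays have neighbouring sample numbers, 68 and 67, while the other resident arrays have 55, 56 and 54. The labels do not say what these numbers stand for. The mean level of the 43 members was 8.28, 8.24 and 8.63 in resident WT and 8.78 and 9.04 in Il10ra_mKO. Both mutant arrays lay above each WT array, and Il10ra_mKO array 1 was closest to WT array 3.

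Set against WT within its own run of numbers, each mutant array showed the difference. Il10ra_mKO array 1 exceeded the mean of WT arrays 1 and 2 in 42 of 43 members (97.7%), against 43.3% of all genes, with a median of 0.48. Il10ra_mKO array 2 exceeded WT array 3 in 37 members (86%), against 44.3% of all genes, with a median of 0.39. Both differences share no array. They followed each other across the members (Pearson r = 0.80, Spearman rho = 0.75, n = 43 genes, which are not independent replicates), and over all genes r was 0.63. Zbp1 differed by 2.16 and 1.40, Rsad2 by 1.39 and 1.21, and Stat2 by 0.92 and 0.95. Isg20 differed by 0.08 and -0.52. With the runs as a block, 25 members were higher at an unadjusted p under 0.05 and 0 passed after adjustment (limma, smallest adjusted p = 0.213); the number of all genes at that unadjusted p was 2352 instead of 1580.

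**Figure D3:**
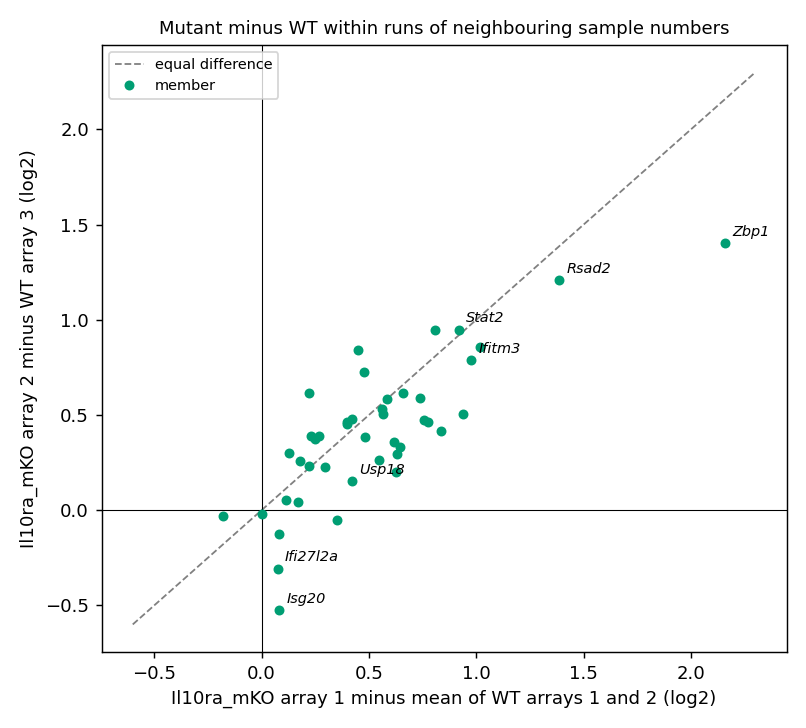
Each point is 1 of the 43 members. The x axis is Il10ra_mKO array 1 minus the mean of WT arrays 1 and 2, and the y axis Il10ra_mKO array 2 minus WT array 3, both in log2 units, with a dashed line of equality. Most points lie above 0 on both axes, with Zbp1 at 2.16 and 1.40 the farthest out.

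In the CX3CR1hi cells, where 1 array of each genotype leaves no replicate check, the differences between Il10_KO and WT were smaller. The median of the members was 0.22, against 0.03 for all genes, with 33 members higher and 10 lower, where 56.3% of all genes were higher and 43.7% lower. At least 1.5-fold higher were 4 members, against 2.7% of all genes, and 0 were lower by as much, against 4.42%. These 4 were Zbp1 (8.69 in WT and 9.71 in Il10_KO, 2.03-fold), Oasl1 (7.74 and 8.54, 1.74-fold), Rsad2 (7.80 and 8.54, 1.68-fold) and Ifit2 (8.29 and 8.99, 1.63-fold). With each array centred on its median the count was 7. Using the spread of the resident arrays, which assumes that the lone arrays vary as those do, 0 members passed over all genes (limma, smallest adjusted p = 0.221), against 3.2% of all genes that rose and 4.7% that fell. At an unadjusted p under 0.05, Zbp1 was the single member higher, against 10.4% of all genes. Under the brightness filter 1 of 42 members was higher at that p, against 7.03% of 10558 genes. After adjustment 2 of these 10558 genes passed, against 1576 of 19938 without the filter and 21 with quantile normalization. The unfiltered shares of all genes thus depended on dim genes and on the normalization, and are a weak benchmark for the members.

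Of the members, 7 (16.3%) were higher in Il10ra_mKO and lower in Il10_KO, near the 12.9% of all genes that were. Ifitm3 was at 11.66 in both CX3CR1hi arrays, a difference of 0.01, or -0.07 with quantile normalization. Oas2 was at 9.36 in WT and 9.21 in Il10_KO, and Oas3 at 6.03 and 5.82. Parp12 was at 10.56 and 10.70. In contrast, Stat2 was at 9.31 and 9.85, Ube2l6 at 8.12 and 8.63, and Tor3a at 9.05 and 9.59, each the largest difference of its role. Isg20, at 8.59 in WT and 8.15 in Il10_KO, had the most negative change here as well.

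Setting both mutants side by side, the change was larger in Il10ra_mKO than in Il10_KO in 39 of the 43 members (90.7%), against 46.5% of all genes (53.5% had the opposite order), and the median difference of the changes was 0.27. Without Il10ra_mKO array 2 the count was 31 and the median 0.17, without WT array 2 the count was 34, and without Il10ra_mKO array 1 the median was 0.44. No single difference passed: by limma 0 members had an adjusted p under 0.05 (smallest adjusted p = 0.484), against 2.89% of all genes in the direction of Il10ra_mKO and 1.81% in the other. At an unadjusted p under 0.05 there were 0 members, against 8.49% and 7.36% of all genes. Under the brightness filter 0 of 42 members had a larger change in Il10ra_mKO at that p, against 1.71% of 10558 genes. With 42 members, a count of 0 is close to this share. After adjustment 1 of these 10558 genes passed, against 937 of 19938 without the filter. The unfiltered shares thus rested largely on dim genes, and do not show that members were called less often than other genes. The 5 members with the smallest p were Ifitm3, Zbp1, Oas3, Parp12 and Oas2. The difference was 0.82 ± 0.39 for Ifitm3 (95% interval -0.29 to 1.93) and 0.85 ± 0.42 for Zbp1 (-0.33 to 2.04). It was 0.72 ± 0.41 for Oas3, 0.54 ± 0.31 for Parp12 and 0.76 ± 0.43 for Oas2. All these intervals contain 0 and differences above 1, so neither equality nor a gap of that size was resolved. Genotype, Cx3cr1 allele and sort label differ together between both comparisons and cannot be told apart in this difference.

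**Figure D4:**
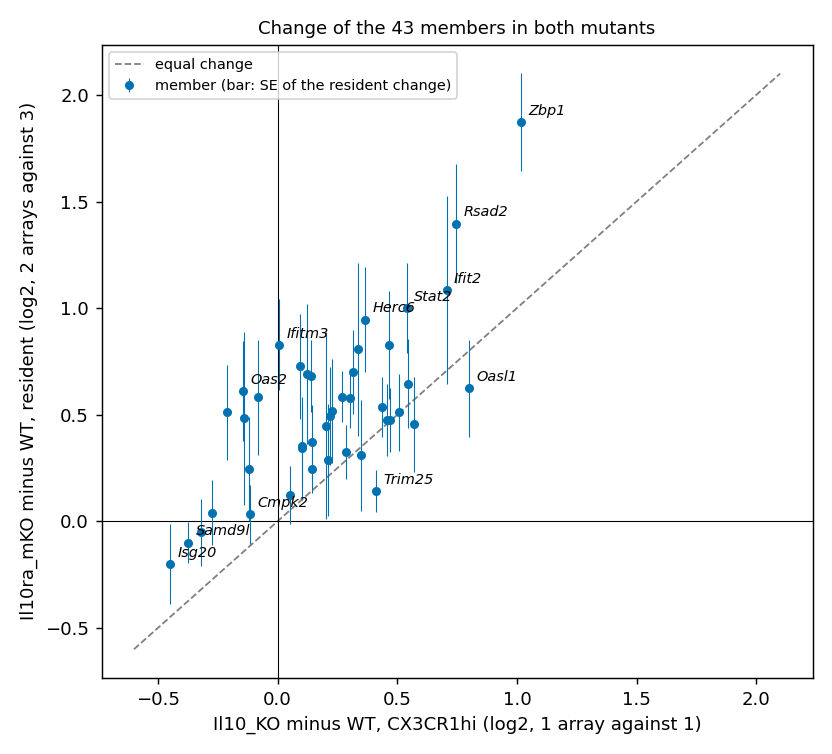
Each point is 1 member. The x axis is Il10_KO minus WT in CX3CR1hi cells (1 array against 1), the y axis Il10ra_mKO minus WT in resident cells (2 arrays against 3), both in log2 units; bars are the SE of the resident change and the dashed line is equality. In 39 of the 43 members the point lies above the line, while Oasl1 and Trim25 lie below it.

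The comparisons share no array, and across the 43 members both changes had a Pearson r of 0.71 (Spearman rho 0.55). Over all 19938 genes r was 0.70 (rho 0.55), so the correlation was no closer in the antiviral genes. A correlation leaves out a shift that both changes share. In both comparisons 33 members (76.7%) were higher, against 35.6% of all genes. In WT the antiviral genes read brighter under the CX3CR1hi label: that array lay above all 3 resident WT arrays in 28 members (65.1%), against 42.2% of all genes. Its values were also spread more widely, with quartiles of 4.64 and 8.26, against 4.97 to 5.06 and 7.93 to 7.97 in resident WT. Only 6.98% of members had a resident WT mean under the median of all values, against 49.9% of all genes. The part of this wider spread was not tested. The label, the kit and the numbering differ between these arrays and cannot be told apart.

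The genes that make and receive the interferon signal were read from lists of their own, 106 genes of which 91 were measured. The 9 measured genes that act upstream of interferon production had a median of 0.23 in Il10ra_mKO (-0.14 to 1.32). Of these, 7 were higher and 2 lower, where 48.8% and 50.1% of all genes were. In the CX3CR1hi arrays their median was 0.16 and all 9 were higher, where 56.3% of all genes were. In Il10ra_mKO the 14 measured ligands of types I and III had a median of 0.02. At an unadjusted p under 0.05, 0 were higher or lower, against 4.06% and 3.86% of all genes. With 14 genes, a count of 0 is close to these shares. In the CX3CR1hi arrays the median was -0.02, with 7 ligands higher and 7 lower. There Ifnk, at 4.63 in WT and 4.82 in Il10_KO, differed by 0.19. Ifnb1, interferon beta, was at 6.37, 5.79 and 5.15 in resident WT, against 6.02 and 5.90 in Il10ra_mKO, and Ifna4 at 4.69 to 4.73 in WT and 4.72 and 4.63 in the mutant. Ifnb1 thus lay around, and Ifna4 below, the median of all values on the arrays (5.86), where RMA compresses differences, and neither passed the test. Ifng, interferon gamma, was at 5.09 to 5.23 in WT, against 5.70 and 5.23 in the mutant.

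The receptor chains were bright and differed little. Ifnar1 differed by 0.12 and Ifnar2 by 0.25, with WT at 10.38 to 10.73 and 11.02 to 11.54. Jak1 differed by 0.08 and Tyk2 by 0.33. Of the 8 receptors and kinases, 2 were higher at an unadjusted p under 0.05, against 4.06% of all genes. These were Jak2 (0.92 ± 0.30) and Ifnlr1 (0.24 ± 0.08), which were named after their values were seen. Ifnlr1, a chain of the type III interferon receptor, stood at 5.53 or less in every array.

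Among the transcription factors, Irf7 and Irf1 differed most. Irf7, which amplifies interferon production, was at 8.24, 8.10 and 8.53 in WT, against 9.21 and 9.55 in Il10ra_mKO (1.09 ± 0.19, limma adjusted p = 0.345). In the CX3CR1hi arrays it was at 8.71 and 8.81. Irf1, a factor induced strongly by interferon gamma, was at 10.84, 10.42 and 10.27 in WT, against 11.79 and 11.37 in the mutant (1.07 ± 0.24), and at 10.76 and 11.37 in the CX3CR1hi arrays. Irf9, the DNA-binding partner of Stat2, differed by 0.26 with overlap and Irf3 by 0.09. Socs1, a feedback inhibitor of the receptor kinases, was dim, at 4.86 to 4.93 in WT, against 5.63 and 5.58 in the mutant (0.71 ± 0.03, limma adjusted p = 0.0902). Among the 7 measured negative regulators of the signal, Socs1 included, the largest change was 0.71 in Il10ra_mKO and 0.98 in the CX3CR1hi arrays. In 4 of these 7 the change was smaller in Il10ra_mKO than in Il10_KO. Adar, an RNA-editing enzyme, differed by 0.40.

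Other interferon-stimulated genes that are not members gave a median of 0.40 over 31 measured genes. At an unadjusted p under 0.05, 12 were higher and 0 lower, against 4.06% and 3.86% of all genes. A list leaning towards interferon gamma, with GTPases of the GBP and IRG families, Ciita, Cxcl9 and Nos2, gave a median of 1.61 over 15 genes. Of these, 13 lay above WT without overlap, where 8.92% of all genes did, and 12 were higher at that p. In the CX3CR1hi arrays the medians were 0.33 and 1.14, against 0.03 for all genes. The antiviral members, at 0.51 and 0.22, lay below the gamma-leaning list in both comparisons. No test of the difference between lists was made, and the lists overlap in regulation, since most of these genes respond to both kinds of interferon.

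**Figure D5:**
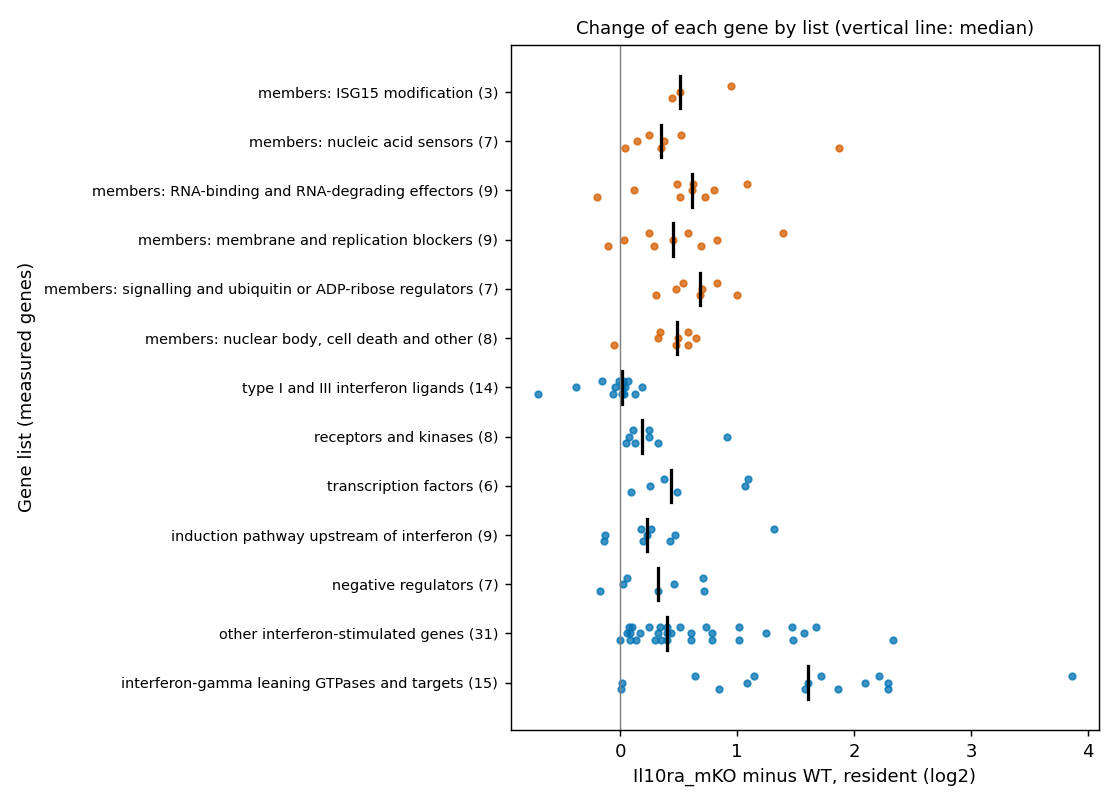
Change of each gene in Il10ra_mKO against resident WT (x axis, log2) by gene list (y axis, number of measured genes in brackets). Orange points are the members by role and blue points the pathway lists, with a black line at each median. The ligands centre on 0.02, the members' roles between 0.35 and 0.68, and the gamma-leaning list on 1.61.

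Markers of other cells moved beside these genes, and their part in the differences was not tested. Plasmacytoid dendritic cells are known as a strong source of type I interferon. Of their 7 measured markers 3 were higher in Il10ra_mKO, their mean level was 6.36 to 6.49 in resident WT and 6.16 and 6.29 in the mutant, and Siglech, a defining one, was at 7.22, 6.80 and 7.14 in WT, against 5.43 and 5.45 in the mutant. Of 10 neutrophil markers 9 were higher (mean level 5.65 to 5.70 in WT, 6.28 and 5.89 in the mutant). Of 7 monocyte markers 3 were higher (8.04 to 8.20 in WT, 8.10 and 7.47 in the mutant). These means hide larger log2 changes of single markers: F13a1 differed by -3.07, Fn1 by -1.46 and Hp by 1.73. Among conventional dendritic cell markers Clec9a differed by 2.91 and Cd209a by -2.22. Of 9 fibroblast and muscle markers 8 were lower (7.25 to 7.80 in WT, 6.79 and 6.71 in the mutant). Of 9 conventional dendritic cell markers 2 were lower, Zbtb46 stood at 4.735 in every resident array, and the others were higher. The mean level of these 9 was 6.37 to 6.61 in WT, and 6.85 and 7.15 in the mutant. Of 7 B and plasma cell markers 5 were higher (7.53 to 7.72 in WT, 7.90 and 8.54 in the mutant), and of 10 T cell and ILC markers 9 were higher (5.83 to 5.99 in WT, 6.05 and 6.08 in the mutant). Markers of B and plasma cells did not move together. Ms4a1 was at 5.70 to 6.19 in WT, against 6.72 and 8.16 in the mutant. It was highest in Il10ra_mKO array 2, as were the members. Jchain was at 11.55 to 11.60 in WT, against 11.36 and 11.46 in the mutant, and Mzb1 was at 6.78 and 6.74 in the mutant. Of 12 epithelial markers 11 were lower, with Epcam at 10.64 to 11.16 in WT, against 10.57 and 9.15 in the mutant. Il10ra_mKO array 1 lay above WT arrays 1 and 2 in 37 of 43 members, where 27.4% of all genes did, and below WT array 3 in 15 (34.9%), where 37.2% of all genes did.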

How the data were processed

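The deposited table holds log2 values; per the submitters' processing notes the authors used RMA, which corrects background, normalizes and summarises probe sets, and Partek. Tool versions, the genome build and joint normalization of the arrays: not given in the sources used here. RMA compresses low values, and the median of all deposited log2 values was 5.86. Of 35399 rows, 21789 carried 1 gene symbol, 1621 several and 11989 none; 21698 of the single-symbol rows matched RefSeq gene IDs (GRCm38.p6, names only), which changed 0 symbols. The brightest row was kept per gene, with no brightness filter. Arrays correlated at r of 0.976 to 0.991 within a sort label and 0.917 to 0.934 between labels, and 0 pairs were identical. The number of arrays limits all precision.

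The 4 group means (genotype within sort label) were fitted to all 7 arrays with limma 3.58.1 in R 4.3.3 (lmFit, eBayes with trend; 3 residual and 0.831 prior degrees of freedom). P-values are two-sided and adjusted by Benjamini-Hochberg over 19938 genes. The fit was tested on simulated data. Values per array are given for 2 members of each role with the smallest p, the largest CX3CR1hi change of each role, the 5 smallest p of the difference and the lowest member. Pathway genes named by a fixed list were Ifnb1, Ifna4, Ifng, Ifnar1, Ifnar2, Jak1, Tyk2, Irf9, Irf7, Irf3, Irf1, Socs1 and Adar; 1 further gene of that list is not reported here. Other genes were named after their values were seen. Members and lists were chosen with earlier results of these data known. Replicate numbers follow accession order and pair nothing.

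Alternatives tried were the mean of a gene's rows, a brightness filter, quantile normalization, median centring, no variance trend, robust variance, the resident arrays alone, runs of sample numbers as a block, and leaving out each resident array in turn.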

Additional observations from a re-analysis of the deposited data

How the results depend on the processing

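The median changes of the members kept their direction and moved by less than the SD of the members' mean among resident WT arrays under the alternatives run for each: 0.37 to 0.61 in Il10ra_mKO, 0.17 to 0.27 in Il10_KO and 0.17 to 0.44 for the difference. Resident arrays alone and the block were run for Il10ra_mKO only, and leaving out resident arrays cannot move the Il10_KO median. Counts moved more. With quantile normalization or median centring 23 members were higher in Il10ra_mKO at an unadjusted p under 0.05 and 1 passed adjustment (Zbp1), with 1976 and 2287 of all genes at that unadjusted p. With runs of sample numbers as a block the count was 25. With median centring 7 members were at least 1.5-fold higher in Il10_KO. With median centring 72.7% of all genes were higher in Il10ra_mKO, instead of 48.8%. Leaving out 1 array gave 2 to 19 members at that unadjusted p (2.37% to 9.59% of all genes), 23 to 37 without overlap (10.4% to 25.6%) and 0 to 3 for the difference (7.72% to 12.3%), the last below the share of all genes each time. Leaving out an Il10ra_mKO array leaves 1, assumed to vary as the WT arrays do. The shares of all genes in these fits were taken without the brightness filter. With all arrays, the filter lowered the share for the difference from 8.49% to 1.71%, so the unfiltered shares are a weak benchmark.

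Signs of single members turned as follows. With quantile normalization Ifitm3 was at -0.067 in Il10_KO and Trim21 at -0.014 in the difference. With the block Ddx60 was at -0.0087 and Cmpk2 at -0.0076 in Il10ra_mKO. Leaving out 1 array at a time gave these log2 ranges in Il10ra_mKO: Ddx60 -0.10 to 0.18, Cmpk2 -0.05 to 0.14, Ifi27l2a -0.15 to 0.075, Isg20 -0.45 to 0.045 and Slfn5 -0.016 to 0.59. For the difference of both changes it gave Ube2l6 -0.15 to 0.10, Oasl1 -0.33 to 0.0037, Trim21 -0.16 to 0.17, Ifi35 -0.092 to 0.18, Epsti1 -0.06 to 0.16, Oas1a -0.029 to 0.16, Slfn5 -0.23 to 0.38, Parp14 -0.0047 to 0.20, Trim30a -0.30 to 0.22, Bst2 -0.42 to 0.19, Usp18 -0.11 to 0.59, Mx2 -0.028 to 0.23 and Tor3a -0.16 to 0.36. The labels give no replicate numbers, so the only block was that of runs of sample numbers. The cause of these shifts was not tested.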

Other observations

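Close relatives of the members, taken from the list of other interferon-stimulated genes and chosen after their values were seen, differed widely from one another. Among the Schlafen genes, Slfn1 was at 5.78, 5.44 and 5.74 in resident WT and at 7.44 and 7.20 in Il10ra_mKO (log2 change 1.67 ± 0.15, limma adjusted p = 0.207), and at 5.74 and 7.26 in the CX3CR1hi arrays of WT and Il10_KO. Slfn4 differed by 0.06, with Il10ra_mKO at 8.17 and 6.64 on either side of WT, and Slfn9 by 0.08. Beside Ifitm3, Ifitm1 was at 8.50 to 8.96 in WT and above all of these in both mutant arrays (1.48 ± 0.56), and Ifitm2 differed by 0.10.

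From the same list, 3 genes of antigen processing, also picked after their values were seen, are given here. Tap1, a subunit of the peptide transporter, was at 9.18 to 9.47 in WT and at 10.79 and 10.77 in Il10ra_mKO (1.47 ± 0.10, limma adjusted p = 0.159). The immunoproteasome subunits Psmb8 and Psmb9 differed by 1.01 and 1.25, and in the CX3CR1hi arrays Tap1, Psmb8 and Psmb9 differed by 1.01, 0.85 and 0.93.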
